A study of Mus musculus with 14 samples.

Results

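The chemokine system of the mouse aortic intima was described from the 68 genes whose symbols begin with Ccl, Cxcl, Cx3cl, Xcl, Ccr, Cxcr, Cx3cr, Xcr or Ackr followed by a number, out of 22430 genes in the count table. They comprised 45 ligand genes (31 CC, 12 CXC and 2 of the CX3C and XC kinds) and 23 receptor genes (11 CC, 8 of the CXC, CX3C and XC kinds, and 4 atypical). Of these, 41 had enough counts to be tested, 27 ligands and 14 receptors, and 27 did not. Chemokine genes under other names, such as Pf4, Ppbp and the receptor-like gene Ccrl2, were not among them.

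Chemokines are small secreted proteins that guide leukocytes along a gradient, and their receptors are G protein-coupled receptors on the migrating cells. The families are named by the spacing of the first cysteines of the ligand. CCL2 with CCR2, CX3CL1 with CX3CR1, and CCL3 and CCL5 with CCR1 are the pairs best known for bringing monocytes to the artery wall in atherosclerosis. Atypical receptors do not signal through G proteins and instead take up chemokines and remove them: ACKR3 takes up CXCL12, and ACKR4 takes up CCL19, CCL21 and CCL25.

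All mice lacked apolipoprotein E (Apoe-/-), which makes them prone to atherosclerosis, and each library was RNA from the thoracic aorta, without its arch, of a pool of 12 to 14 mice of 1 genotype. The wild-type control (Apoe-/- Lmna+/+, 4 pools) was the control for ubiquitous progerin (Apoe-/- LmnaG609G/G609G, 3 pools), in which every cell can make progerin, a truncated form of lamin A that causes Hutchinson-Gilford progeria. The lamin C-only control (Apoe-/- LmnaLCS/LCS, 4 pools), which makes lamin C and no lamin A, was the control for VSMC progerin (Apoe-/- LmnaLCS/LCS SM22Cre, 3 pools), in which Cre under the SM22α promoter directs progerin to vascular smooth muscle cells (VSMC). Mouse ages were not given in the sources used here. Pools were separate sets of mice, and p-values measured how far pools, and not single mice, were spread.

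Library totals ran from 27169784 to 35692385 estimated counts. Wild-type control pool 1 had counts for 14331 genes, against 15195 to 15247 in the other wild-type pools. VSMC progerin pool 3 lay furthest from its own group over all genes. Its chi-square per degree of freedom was 37.9 against pool 1 and 33.6 against pool 2, and at most 21.6 in any other pair within a group. Endothelial markers fitted the labelled tissue, and leukocyte markers were present as well: 8 endothelial markers summed to between 19260 and 24064 CPM (counts scaled to a library total of 1000000, with TMM factors) in every library, while 12 macrophage markers summed to between 217 and 294 CPM in wild-type controls, 1247 and 1901 CPM in ubiquitous progerin, 207 and 381 CPM among lamin C-only controls, and 901 and 1065 CPM in VSMC progerin. Of those 12 macrophage markers, 11 rose and 0 fell in ubiquitous progerin, and 11 rose and 1 (Mertk) fell in VSMC progerin. None of the macrophage markers was at 0 in all libraries. In bulk RNA of this kind, more cells of a type and more RNA per cell cannot be told apart, and the part of the macrophage marker rise in the chemokine values that follow was not tested.

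Of 27 tested ligands, 13 rose in ubiquitous and 13 in VSMC progerin, among them Ccl2, Ccl6, Ccl8 and Ccl9 in both. Monocyte and macrophage receptors such as Ccr1 and Ccr2 also rose in both settings, while the atypical receptors Ackr3 and Ackr4 fell. In ubiquitous progerin 25 of the 41 tested members (61.0%) passed the test at an adjusted p under 0.05, 19 higher (46.3%) and 6 lower (14.6%). Over all 14269 genes tested, 54.6% were called in that comparison, 26.3% higher and 28.3% lower, so the total share was near the background and the split between directions was not. In VSMC progerin 21 members (51.2%) were called, 18 higher (43.9%) and 3 lower (7.32%), against 42.0% of all genes, 19.0% higher and 23.0% lower (2705 higher of 5988 called, and 3251 of 5659 with upper-quartile scaling, which called 20 members higher and 3 lower). The median log2 fold change of the tested members was 1.40 in ubiquitous and 1.47 in VSMC progerin, and that of all genes was -0.005 and -0.03. Members that had enough counts only through a progerin group had to be higher there, so these counts and medians describe the members and do not test them.

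Of the 41 tested members, 16 were called higher in both settings and 2 lower in both, 1 (Cx3cl1) was called in opposite directions, and 14 passed in neither. Of all 14269 genes tested, 1126 were higher in both, 1231 lower in both and 1519 opposite, and 4373 passed in neither. The progerin effects had separate controls and shared no library. Tests were edgeR's quasi-likelihood test, adjusted by Benjamini-Hochberg over the 14269 genes, log2 fold changes are given with their standard error (SE), and values listed for a group follow its pool numbers.

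**Figure D1:**
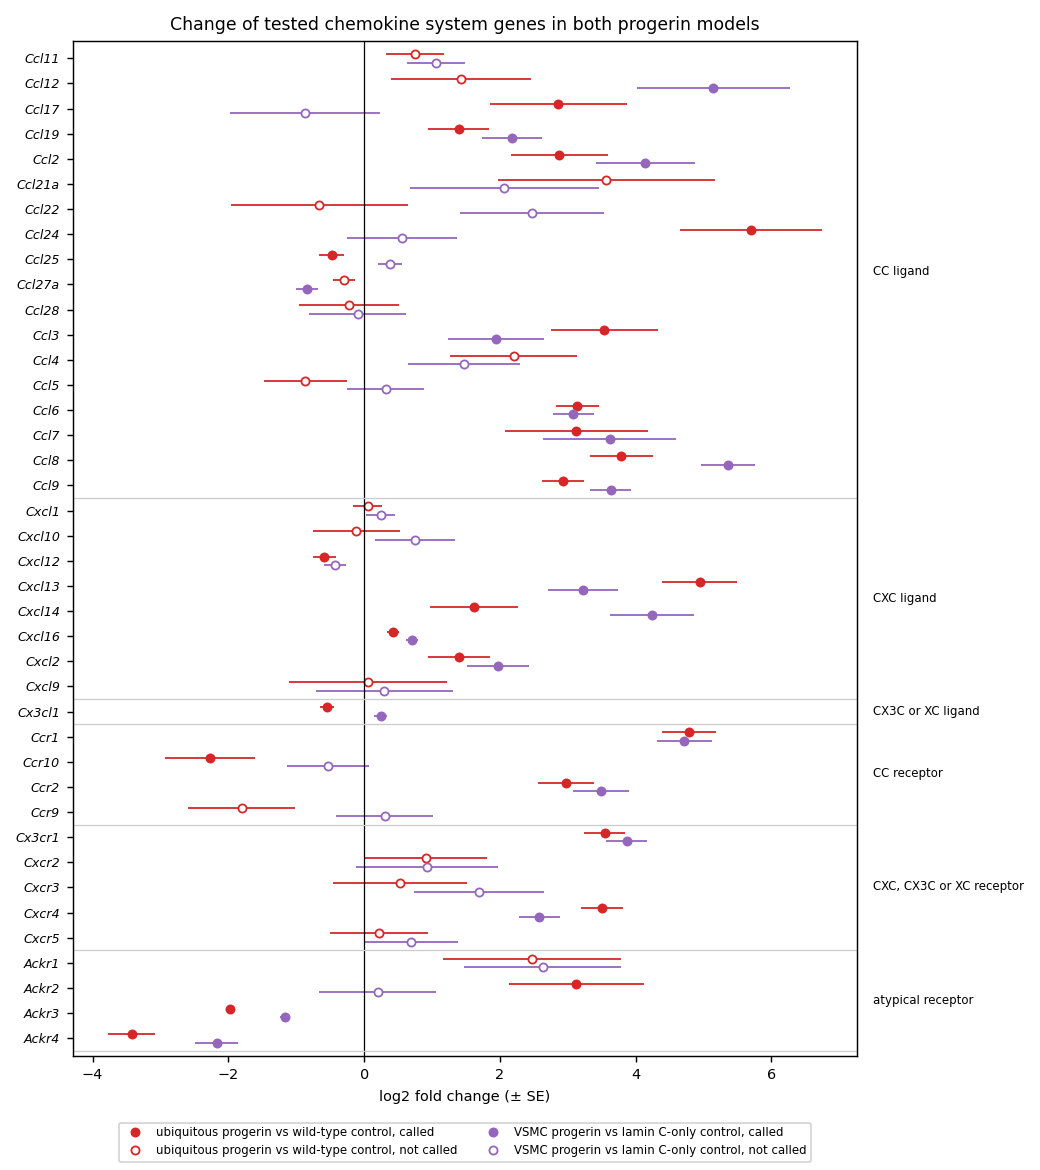
Log2 fold change with its SE for tested members in ubiquitous progerin against wild-type control and in VSMC progerin against lamin C-only control, with filled marks for adjusted p under 0.05. Most called ligands and receptors lie to the right of 0 in both comparisons, and Ackr3 and Ackr4 lie to the left in both.

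Summed per kilobase of exon, so that genes of different length can be compared, the make-up of the chemokine system shifted. The share of atypical receptors, chiefly Ackr3, fell and that of CC ligands rose. Atypical receptors held 65.7% ± 2.1 (SD, n = 4) of the summed level of the 68 genes in wild-type controls, 19.5% ± 0.98 (n = 3) in ubiquitous progerin, 62.0% ± 3.2 (n = 4) among lamin C-only controls and 20.2% ± 2.6 (n = 3) in VSMC progerin. CC ligands held 7.36% ± 0.29, 34.9% ± 3.5, 9.35% ± 1.9 and 45.5% ± 3.1 in the same order. For both classes the ranges of each progerin group and its control did not overlap. Few genes made up these class levels. Ackr3 held 133 of 145 CPM per kb of the atypical receptors in wild-type controls and 135 of 145 among lamin C-only controls. Neither Ackr1 nor Ackr2 was called lower. Of the 141 CPM per kb of CC ligands in VSMC progerin, Ccl8 held 50.4, Ccl6 47.5 and Ccl9 13.9. Of the 63.5 in ubiquitous progerin they held 6.96, 27.8 and 7.32. The total over the 68 genes was 221 ± 7.7 CPM per kb in wild-type controls, 182 ± 9.8 in ubiquitous progerin, 233 ± 15 among lamin C-only controls and 310.4 ± 15 in VSMC progerin.

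**Figure D2:**
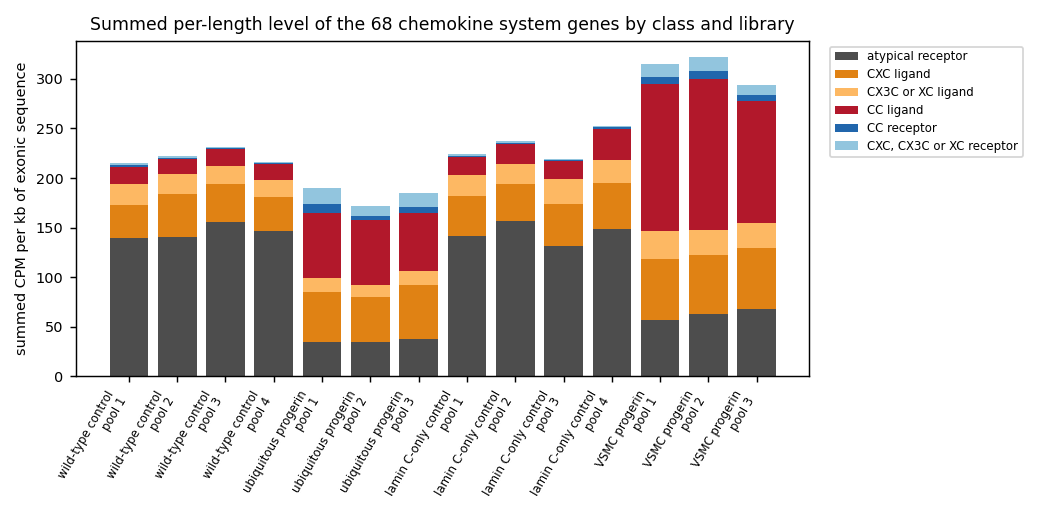
Summed level of the 68 genes in CPM per kb of exonic sequence, stacked by class, with 1 bar per library. The atypical receptor segment is shorter, and the CC ligand segment longer, in every progerin library than in its controls.

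Ccl6 and Ccl9, neighbouring CC ligands that attract myeloid cells through CCR1, rose in both settings, and Ccl6 had the highest level per length of the CC ligands in ubiquitous progerin (27.8 CPM per kb). Ccl6 (ENSMUSG00000018927, GRCm38 chromosome 11, 83587882 to 83593087) was at 5.31, 4.39, 6.77 and 6.19 CPM in wild-type controls and at 64.7, 46.5 and 38.6 CPM in ubiquitous progerin. It was at 6.62, 12.6, 6.70 and 14.5 CPM in lamin C-only controls and at 81.0, 104 and 70.8 CPM in VSMC progerin. Every progerin pool was above every control pool, and Ccl6 rose by 3.14 ± 0.31 (adjusted p = 6.8e-06) and 3.08 ± 0.30 (adjusted p = 9.6e-06) on the log2 scale. Ccl9 (ENSMUSG00000019122, chromosome 11, 83572919 to 83578636) was at 3.58, 3.04, 2.11 and 2.97 CPM in wild-type controls against 26.4, 19.4 and 21.1 CPM in ubiquitous progerin. In the lamin C-only control it was at 2.04, 2.86, 2.71 and 6.10 CPM, against 38.9, 51.2 and 36.5 CPM in VSMC progerin. Its ranges did not overlap either, and it rose by 2.93 ± 0.30 (adjusted p = 3.8e-06) and 3.63 ± 0.30 (adjusted p = 8.4e-07).

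The monocyte chemoattractant genes Ccl2, Ccl7, Ccl12 and Ccl8 lie beside each other with the eosinophil attractant Ccl11 on chromosome 11, between 82035571 and 82116799. Ccl8 (ENSMUSG00000009185, 82115185 to 82116799) had the highest level per length of the CC ligands in VSMC progerin (50.4 CPM per kb), and every VSMC progerin pool was above every ubiquitous progerin pool. It was at 0.142, 0.545, 0.0976 and 0.222 CPM in wild-type controls, and at 3.41, 3.63 and 3.63 CPM in ubiquitous progerin. In lamin C-only control it was at 0.670, 0.249, 0.352 and 1.23 CPM, and in VSMC progerin at 28.8, 28.1 and 20.4 CPM. No ranges overlapped, and Ccl8 rose by 3.79 ± 0.46 (adjusted p = 5.5e-06; 4.49 without wild-type control pool 2) and 5.36 ± 0.40 (adjusted p = 5.4e-08). The difference between the rises, -1.58 ± 0.67, did not pass the test (adjusted p = 0.069).

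Ccl2 (ENSMUSG00000035385, 82035571 to 82037453), the ligand of CCR2, was at 0, 0.256, 0.423 and 0.159 CPM in wild-type controls and at 1.02, 1.11 and 2.58 CPM in ubiquitous progerin. It was at 0.279, 0.0622, 0.0271 and 0.306 CPM in lamin C-only controls and at 2.94, 3.25 and 2.89 CPM in VSMC progerin. Every progerin pool was again above its controls, with rises of 2.87 ± 0.71 (adjusted p = 0.002) and 4.14 ± 0.73 (adjusted p = 0.00012). Ccl7 (ENSMUSG00000035373, 82045712 to 82047525), another CCR2 ligand, was at 0, 0.0961, 0.0976 and 0.0953 CPM in wild-type controls and at 0, 0.408 and 1.61 CPM in ubiquitous progerin. In lamin C-only control it was at 0.0279, 0.124, 0.0542 and 0.337 CPM, and in VSMC progerin at 1.91, 1.50 and 1.65 CPM. The ubiquitous progerin pools overlapped the control because pool 1 had no count, and the rise of 3.13 ± 1.05 (adjusted p = 0.016) rested on pool 3: without it the value was 1.42 (adjusted p = 0.34), and without pool 1 it was 3.72. With limma-voom the Ccl7 value in ubiquitous progerin was 1.62 (adjusted p = 0.33), and on the deposited log2 values 1.70 (adjusted p = 0.28). In VSMC progerin Ccl7 rose by 3.62 ± 0.98 (adjusted p = 0.0055; 4.56 without lamin C-only control pool 4, 4.66 with the pool number as a block) and the ranges did not overlap.

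Ccl12 (ENSMUSG00000035352, 82101845 to 82103400), a further CCR2 ligand of the mouse, was called in VSMC progerin and not in ubiquitous progerin. It was at 0.248, 0, 0.0976 and 0.0953 CPM in wild-type controls and at 0.0341, 0.519 and 0.349 CPM in ubiquitous progerin, ranges that overlap (log2 fold change 1.43, adjusted p = 0.26). In lamin C-only control it had counts in pool 4 alone, at 0.123 CPM, and in VSMC progerin it was at 0.771, 1.69 and 1.08 CPM. All VSMC progerin pools were thus above all controls, and Ccl12 rose by 5.14 ± 1.13 (adjusted p = 0.001). That size depends on a few control counts: it was 8.20 without lamin C-only control pool 4 and 5.84 with the pool number as a block. The difference between the effects, -3.72, did not pass the test (adjusted p = 0.062). Ccl11, from the same stretch, was at 1.01 to 1.49, 1.50 to 2.78, 0.591 to 2.11 and 1.73 to 2.87 CPM in wild-type controls, ubiquitous progerin, lamin C-only and VSMC progerin. Its log2 fold changes, 0.75 (adjusted p = 0.15) and 1.05 (adjusted p = 0.053), did not pass.

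The stretches upstream of Ccl12 and Ccl8 are shown because these neighbours had the largest rises of any member in VSMC progerin and each holds the letters TATAAA, a form of the TATA box, in capitals. They are 170 bases, 5′ to 3′, up to the RefSeq start site (build GRCm38.p6), Ccl12 at chr11:82101675-82101844 (plus strand) and Ccl8 at chr11:82115015-82115184 (plus strand).
Ccl12: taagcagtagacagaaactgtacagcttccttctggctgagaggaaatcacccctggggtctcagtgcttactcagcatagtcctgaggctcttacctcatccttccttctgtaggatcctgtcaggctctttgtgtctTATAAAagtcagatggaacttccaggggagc
Ccl8: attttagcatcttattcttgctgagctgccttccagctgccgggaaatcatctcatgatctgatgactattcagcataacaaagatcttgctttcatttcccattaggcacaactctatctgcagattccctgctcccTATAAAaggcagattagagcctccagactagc
The match began 31 bases before the start site in Ccl12 and 32 bases before it in Ccl8. RefSeq promoter windows, from 250 bases before to 50 after the start, were matched for 31 of the 41 tested members and searched on both strands. TATAAA was found for 10 of those 31 members (10 of their 34 windows), 4 of 12 CC ligands, 2 of 7 CXC ligands, Cx3cl1 and 3 of 11 receptors, and in 13.6% of all 32851 windows. A match describes these letters only.

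Ccl3, which attracts macrophages through CCR1 (ENSMUSG00000000982, chromosome 11, 83647844 to 83649355), was at 0, 0.160, 0.163 and 0.127 CPM in wild-type controls and at 1.09, 1.89 and 1.12 CPM in ubiquitous progerin. It was at 0.196, 0.963, 0.298 and 0.0919 CPM in lamin C-only controls and at 1.95, 1.62 and 0.922 CPM in VSMC progerin. Ccl3 rose by 3.54 ± 0.79 (adjusted p = 0.00073) in ubiquitous progerin, with no overlap. In VSMC progerin pool 3 was below lamin C-only control pool 2, and the rise of 1.95 ± 0.70 (adjusted p = 0.032) was lost without lamin C-only control pool 1, 3 or 4 (1.73, 1.84 and 1.63) or without VSMC progerin pool 1 or 2 (1.74 and 1.88), with adjusted p from 0.071 to 0.10. Without lamin C-only control pool 2 it was 2.90. Its neighbour Ccl4 did not pass in either comparison, with log2 fold changes of 2.20 (adjusted p = 0.052) and 1.47 (adjusted p = 0.17). Ccl5, a T cell and monocyte attractant, was at 0.508 to 2.27 CPM in wild-type controls, 0.205 to 1.01 CPM in ubiquitous progerin, 0.528 to 2.15 CPM among lamin C-only controls and 1.51 to 2.03 CPM in VSMC progerin, and passed no test. On chromosome 11 as a whole, 7 of 11 tested ligand genes were higher in ubiquitous and 8 in VSMC progerin, and 0 were lower, where over all genes 26.3% and 19.0% were higher and 28.3% and 23.0% lower.

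Ligands of T cells and dendritic cells were low in counts. Ccl19 (ENSMUSG00000071005, chromosome 4, 42754525 to 42756577), a CCR7 ligand that ACKR4 removes, was at 1.22, 0.705, 0.365 and 0.410 CPM in wild-type controls and at 1.08, 2.42 and 1.78 CPM in ubiquitous progerin. It was at 0.612, 0.653, 0.624 and 0.981 CPM in lamin C-only controls and at 4.15, 2.40 and 3.24 CPM in VSMC progerin. Ccl19 rose by 1.39 ± 0.45 (adjusted p = 0.013) in ubiquitous progerin, where the ranges overlapped and where the call was lost without pool 2 (1.10, adjusted p = 0.081), and by 2.18 ± 0.44 (adjusted p = 0.0005) in VSMC progerin, without overlap. Ccl21a, the other CCR7 ligand, passed no test and ranged from 0 to 6.96 CPM over all libraries. Near-identical copies of Ccl19, Ccl21 and Ccl27 genes shared reads that were divided by a model, so these levels are uncertain.

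Ccl24 and Ccl17 rose in ubiquitous progerin and were not called in VSMC progerin. Ccl24, an eosinophil attractant made by macrophages (ENSMUSG00000004814, chromosome 5, 135569937 to 135573049), was at 0.0354, 0, 0 and 0.0635 CPM in wild-type controls and at 0.818, 1.74 and 1.89 CPM in ubiquitous progerin. It was at 0.475, 0, 0.298 and 0.674 CPM in lamin C-only controls and at 0.404, 0.750 and 0.445 CPM in VSMC progerin, which overlap (log2 fold change 0.56, adjusted p = 0.62). The wild-type pools held 3 counts in all and the ubiquitous progerin pools 125, a ratio of 59.7 after scaling to library totals, with a 95% exact interval of 20.0 to 293, which covers counting error only. Ccl24 passed in ubiquitous progerin (log2 fold change 5.69 ± 1.05, adjusted p = 0.00011; 6.61 without wild-type control pool 4, 6.39 with the pool number as a block), and its effects differed between the settings by 5.14 ± 1.36 (adjusted p = 0.0043; 4.06 with limma-voom, 6.05 without wild-type control pool 4). The lamin C-only control was itself above the wild-type control in 3 of 4 pools, though that difference was not called (adjusted p = 0.25).

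Ccl17, a ligand of CCR4 made by dendritic cells (ENSMUSG00000031780, chromosome 8, 94810453 to 94812036), was at 0, 0.352, 0.163 and 0.0318 CPM in wild-type controls and at 0.614, 1.67 and 0.803 CPM in ubiquitous progerin. It was at 0.0838, 0.218, 0.108 and 0.490 CPM in lamin C-only controls and at 0.0367, 0 and 0.318 CPM in VSMC progerin. Every ubiquitous progerin pool stood above its controls, and Ccl17 rose there by 2.86 ± 1.01 (adjusted p = 0.021). That call was lost without wild-type control pool 4 (2.54, adjusted p = 0.058), and likewise without ubiquitous progerin pool 2 (2.33, adjusted p = 0.12), and the value was 3.89 without wild-type control pool 2. In VSMC progerin the log2 fold change was -0.88 (adjusted p = 0.56). The difference of effects, 3.74 ± 1.51, lay at the threshold (adjusted p = 0.049981). It was lost under 14 of 20 alternatives, with adjusted p from 0.0504 to 0.15 under those 14. Over all 20 its values ran from 3.03 without lamin C-only control pool 4 to 6.28 without VSMC progerin pool 3. Ccl22, the other CCR4 ligand, was not called (log2 fold change 2.47, adjusted p = 0.067, in VSMC progerin). Ccl28 was not called either, at group means of 0.342 to 0.478 CPM. The 5 dendritic cell markers summed to 57.5 to 67.8 CPM in wild-type controls, 97.6 to 133 CPM in ubiquitous progerin, 61.3 to 67.3 CPM among lamin C-only controls and 102 to 123 CPM in VSMC progerin, of which Itgax alone had 4.87, 69.7, 5.40 and 46.5 CPM as group means. Of the 5, 2 rose and 1 fell in ubiquitous progerin (median log2 fold change -0.25) and 3 rose in VSMC progerin, and their part in the Ccl17 values was not tested.

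Ccl25 and Ccl27a, CC ligands known from epithelial tissues, each fell in 1 setting, Ccl25 in ubiquitous and Ccl27a in VSMC progerin. Ccl25, a CCR9 ligand that ACKR4 also removes (ENSMUSG00000023235, chromosome 8, 4325210 to 4360020), was at 5.28, 5.51, 5.35 and 5.60 CPM in wild-type controls and at 3.61, 3.67 and 4.40 CPM in ubiquitous progerin. It was at 5.15, 4.20, 6.44 and 4.82 CPM in lamin C-only controls and at 6.62, 6.72 and 6.88 CPM in VSMC progerin. Ubiquitous progerin was below and VSMC progerin above its controls in every pool, with a fall of 0.48 ± 0.18 on the log2 scale (adjusted p = 0.03) and a value of 0.39 that did not pass (adjusted p = 0.085). The fall was lost without wild-type control pool 2 or 4 (-0.47 each), or without ubiquitous progerin pool 1 or 2 (-0.43 and -0.44), with adjusted p from 0.053 to 0.10. The difference of the effects was -0.87 ± 0.25 (adjusted p = 0.0084). Ccl27a, a CCR10 ligand (ENSMUSG00000073888, chromosome 4, 41769467 to 41774247), was at 10.7, 12.8, 15.8 and 14.8 CPM in wild-type controls and at 12.1, 8.37 and 12.6 CPM in ubiquitous progerin, which overlap (log2 fold change -0.30, adjusted p = 0.12). It was at 13.4, 17.3, 14.6 and 12.5 CPM in lamin C-only controls and at 8.87, 7.50 and 7.75 CPM in VSMC progerin, where it fell by 0.85 ± 0.16 (adjusted p = 0.00029) without overlap. The difference for Ccl27a, 0.55, did not pass (adjusted p = 0.055).

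**Figure D3:**
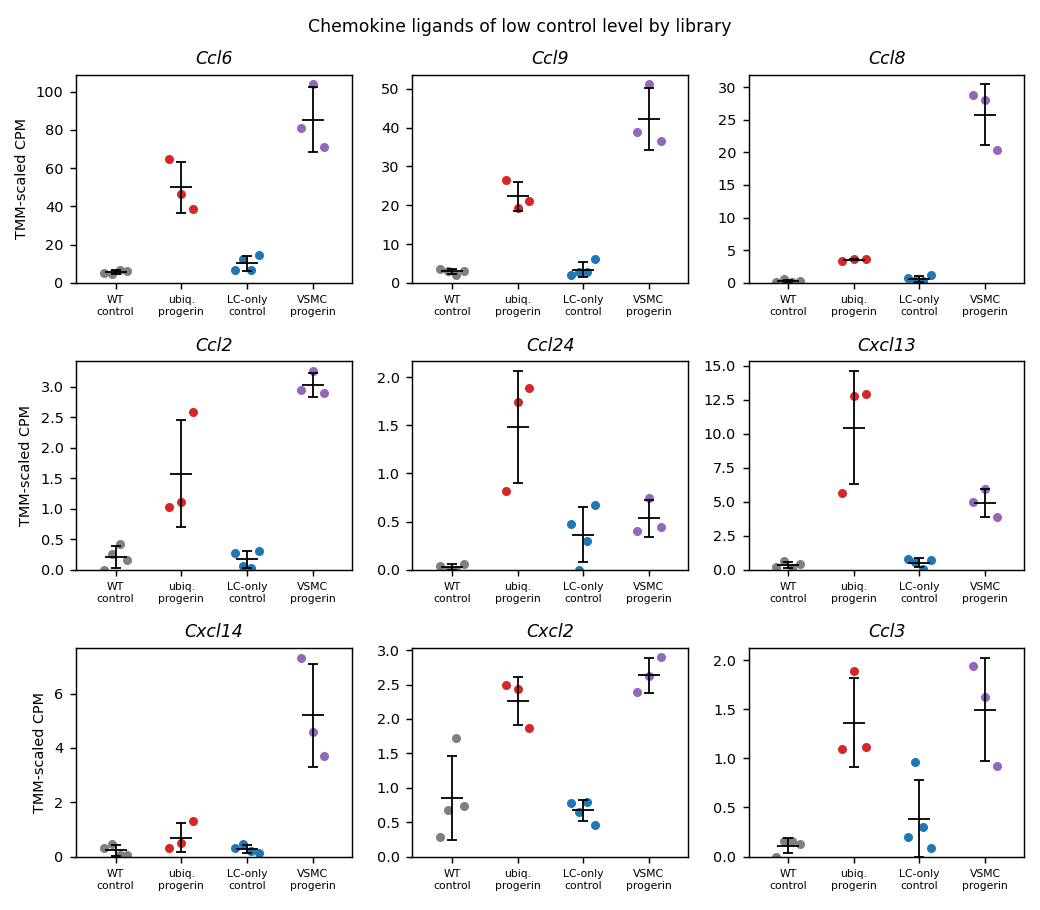
TMM-scaled CPM of ligand genes by library (points), with group means and SD (bars), in the 4 groups. Ccl6, Ccl9 and Ccl8 are higher in every progerin pool than in its controls, and Ccl8 is higher in VSMC than in ubiquitous progerin pools.

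Among the CXC ligands 4 of 8 tested genes were called higher in each setting: Cxcl13, Cxcl14, Cxcl2 and Cxcl16. Over all genes 26.3% were called higher in ubiquitous and 19.0% in VSMC progerin. The Cxcl14 call in ubiquitous progerin was not stable, as given below. The stretches upstream of the neutrophil attractants Cxcl1 and Cxcl2, the T cell attractant Cxcl10 and the B cell attractant Cxcl13 are shown because they hold an NF-kB form, GGGANNNNCC, in capitals, while only Cxcl2 and Cxcl13 of them were called. Each is 170 bases up to the RefSeq start site on GRCm38.p6, 5′ to 3′ along the gene: Cxcl1 at chr5:90891075-90891244 (plus strand), Cxcl2 at chr5:90903729-90903898 (plus strand), Cxcl10 at chr5:92348890-92349059 (minus strand) and Cxcl13 at chr5:95956769-95956938 (plus strand).
Cxcl1: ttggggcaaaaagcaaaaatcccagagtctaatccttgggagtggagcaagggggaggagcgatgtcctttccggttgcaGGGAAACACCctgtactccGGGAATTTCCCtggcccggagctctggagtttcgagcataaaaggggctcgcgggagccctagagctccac
Cxcl2: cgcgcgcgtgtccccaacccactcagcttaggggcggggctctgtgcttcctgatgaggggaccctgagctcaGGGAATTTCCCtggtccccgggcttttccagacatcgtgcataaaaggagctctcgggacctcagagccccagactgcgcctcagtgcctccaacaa
Cxcl10: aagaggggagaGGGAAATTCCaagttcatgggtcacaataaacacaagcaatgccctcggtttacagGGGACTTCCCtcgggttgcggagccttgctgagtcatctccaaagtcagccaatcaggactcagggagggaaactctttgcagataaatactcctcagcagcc
Cxcl13: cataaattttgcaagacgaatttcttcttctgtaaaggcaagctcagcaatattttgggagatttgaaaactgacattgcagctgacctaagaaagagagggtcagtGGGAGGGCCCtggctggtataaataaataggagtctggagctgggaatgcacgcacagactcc
Both strands were searched, and the longer runs of capitals in Cxcl1 and Cxcl2 are overlapping matches. The form was in the window of 5 of 7 matched CXC ligands (Cxcl9 was the fifth), 3 of 12 CC ligands and 3 of 11 receptors, 11 of 31 tested members in all (13 of 34 windows), and in 20.7% of all 32851 windows. GAGGAA, a core of the myeloid factor PU.1, was found for 11 of 31 members (12 of 34 windows) and in 28.3% of all windows. As Cxcl1, Cxcl9 and Cxcl10 show, members that hold the form were also among those not called, and a match describes the letters only.

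Cxcl13 (ENSMUSG00000023078, chromosome 5, 95956951 to 95961068) was at 0.213, 0.609, 0.0976 and 0.413 CPM in wild-type controls and at 5.66, 12.8 and 12.9 CPM in ubiquitous progerin. It was at 0.754, 0.559, 0.0813 and 0.705 CPM in lamin C-only controls and at 4.96, 5.94 and 3.88 CPM in VSMC progerin. All progerin pools were above their controls, with rises of 4.94 ± 0.55 (adjusted p = 1.8e-06) and 3.23 ± 0.52 (adjusted p = 0.00012). The larger rise in ubiquitous progerin did not pass as a difference (1.71, adjusted p = 0.079). The 3 tested B cell markers, Cxcl13 being a B cell attractant, gave a list sum of 1.14 to 3.72 CPM in wild-type controls, 1.78 to 2.76 CPM in ubiquitous progerin, 1.24 to 2.63 CPM among lamin C-only controls and 4.77 to 5.88 CPM in VSMC progerin.

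Cxcl14, a ligand made by fibroblasts and epithelia (ENSMUSG00000021508, chromosome 13, 56288643 to 56296551), was at 0.319, 0.449, 0.0651 and 0.0635 CPM in wild-type controls and at 0.307, 0.482 and 1.29 CPM in ubiquitous progerin. It was at 0.307, 0.466, 0.190 and 0.123 CPM in lamin C-only controls and at 7.31, 4.59 and 3.69 CPM in VSMC progerin. The VSMC progerin pools stood far above the other 3 groups, and Cxcl14 rose there by 4.24 ± 0.62 (adjusted p = 1.6e-05). In ubiquitous progerin the ranges overlapped, and the call (1.62 ± 0.65, adjusted p = 0.04) was lost without wild-type control pool 3 or 4 (1.32 and 1.31), without ubiquitous progerin pool 3 (0.81, adjusted p = 0.36), with limma-voom (1.76), with the pool number as a block (1.48, adjusted p = 0.081) and in a fit of these groups alone (1.62, adjusted p = 0.092). Without wild-type control pool 2 it was 2.22. The difference of effects was -2.62 ± 0.91 (adjusted p = 0.024). It ranged from -3.46 without ubiquitous progerin pool 3 to -2.03 without wild-type control pool 2, and 6 of 22 alternatives lost the call, with adjusted p up to 0.094: limma-voom, the deposited log2 values, and the fits without wild-type control pool 2, ubiquitous progerin pool 1 or 2, or VSMC progerin pool 1. The 6 fibroblast markers summed to 414 to 450.4 CPM in wild-type controls and 342 to 391 CPM in ubiquitous progerin. Their sum was 370 to 617 CPM among lamin C-only controls and 1210 to 1421 CPM in VSMC progerin. Of the 6, 4 were higher and 0 lower in VSMC progerin, and 0 higher and 1 lower in ubiquitous progerin. Pi16 and Col1a1 were the largest parts of the VSMC progerin sum, with means of 698 and 414 CPM against 230 and 17.5 CPM. Pdgfra stood there at 6.19 against 6.30 CPM and Dcn at 133 against 164 CPM. In ubiquitous progerin Pi16 stood at 59.0 against 207 CPM and Dcn at 251 against 175 CPM. The part of the fibroblast markers in the Cxcl14 values was not tested.

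Cxcl2, a neutrophil attractant (ENSMUSG00000058427, chromosome 5, 90903871 to 90905938), was at 0.283, 0.673, 1.72 and 0.730 CPM in wild-type controls and at 2.49, 2.43 and 1.87 CPM in ubiquitous progerin. It was at 0.782, 0.653, 0.786 and 0.460 CPM in lamin C-only controls and at 2.39, 2.62 and 2.89 CPM in VSMC progerin. No ranges overlapped, and Cxcl2 rose by 1.40 ± 0.45 (adjusted p = 0.013; 1.99 without wild-type control pool 3) and 1.97 ± 0.46 (adjusted p = 0.0016). Its neighbour Cxcl1 did not pass in either comparison, with group means of 11.5 ± 2.9 (SD, n = 4), 12.0 ± 3.6 (n = 3), 11.5 ± 1.3 (n = 4) and 13.7 ± 2.9 CPM (n = 3) and log2 fold changes of 0.05 and 0.24. The interferon-induced T cell attractants Cxcl9 and Cxcl10 were not called. Cxcl10 was at 0.531 to 2.24 CPM in wild-type controls, 0.648 to 1.45 CPM in ubiquitous progerin, 1.37, 1.09, 6.45 and 2.30 CPM among lamin C-only controls and 7.31, 2.47 and 4.36 CPM in VSMC progerin. Cxcl9 was at 0.279, 0.124, 4.17 and 0.858 CPM in lamin C-only controls, so that pool 3 was the highest control for both genes.

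Cxcl16 and Cxcl12 were abundant in every group. Cxcl16, a ligand of CXCR6 that is also a scavenger receptor for oxidised lipoprotein (ENSMUSG00000018920, chromosome 11, 70453983 to 70459984), was at 53.8, 59.8, 58.2 and 56.6 CPM in wild-type controls and at 88.8, 64.6 and 77.0 CPM in ubiquitous progerin. It was at 58.5, 57.7, 61.0 and 65.7 CPM in lamin C-only controls and at 87.0, 104 and 105 CPM in VSMC progerin. Progerin pools were above their controls without exception, with rises of 0.43 ± 0.09 (adjusted p = 0.00042) and 0.70 ± 0.09 (adjusted p = 2.5e-06), and the difference of -0.27 did not pass (adjusted p = 0.085). Cxcl12, the ligand of CXCR4 and ACKR3 (ENSMUSG00000061353, chromosome 6, 117168535 to 117181367), was at 82.4, 107, 91.6 and 69.0 CPM in wild-type controls and at 59.4, 54.4 and 61.0 CPM in ubiquitous progerin. It was at 100.4, 88.5, 95.3 and 141 CPM in lamin C-only controls and at 84.0, 74.4 and 77.7 CPM in VSMC progerin. Both progerin groups lay below their controls in every pool, Cxcl12 fell by 0.59 ± 0.17 (adjusted p = 0.01) in ubiquitous progerin, and the log2 fold change of -0.43 in VSMC progerin missed the threshold (adjusted p = 0.052).

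Cx3cl1, the membrane-bound endothelial ligand of CX3CR1 (ENSMUSG00000031778, chromosome 8, 94772009 to 94782427), changed in opposite directions in the 2 settings. It was at 85.9, 81.1, 69.6 and 68.6 CPM in wild-type controls and at 56.9, 45.7 and 54.3 CPM in ubiquitous progerin. It was at 81.9, 75.8, 95.8 and 91.4 CPM in lamin C-only controls and at 111, 96.2 and 99.9 CPM in VSMC progerin. Ranges did not overlap in either comparison. Cx3cl1 fell by 0.54 ± 0.10 (adjusted p = 0.00014) in ubiquitous progerin and rose by 0.25 ± 0.10 (adjusted p = 0.047) in VSMC progerin. The difference of the effects was -0.79 ± 0.14 (adjusted p = 0.00013). The rise in VSMC progerin was lost without lamin C-only control pool 1 or 2 (0.22 and 0.19), without VSMC progerin pool 1, 2 or 3 (0.21, 0.29 and 0.26), with no filter on low counts (0.23) and with the pool number as a block (0.23), with adjusted p from 0.052 to 0.16. The fall in ubiquitous progerin and the difference kept their calls under all alternatives run.

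**Figure D4:**
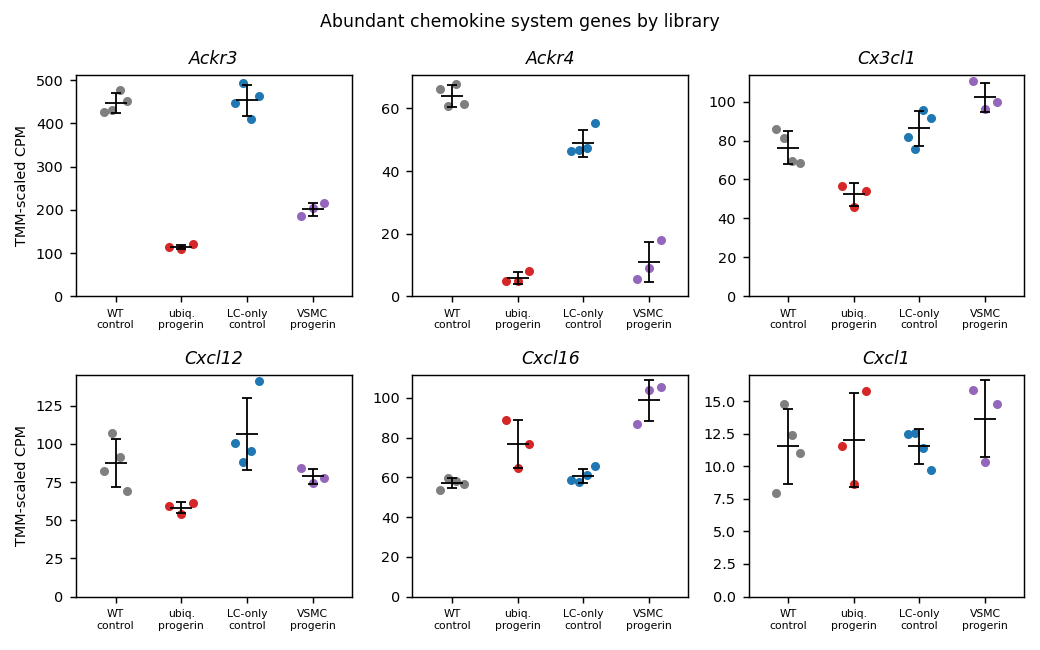
TMM-scaled CPM of 6 members with high control levels, by library (points), with group means and SD (bars). Ackr3 and Ackr4 are lower in every progerin pool than in its controls, and Cx3cl1 is lower in ubiquitous and higher in VSMC progerin.

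Receptors of monocytes and macrophages rose together, with Ccr1, Ccr2, Cx3cr1 and Cxcr4 called higher in both settings. Ccr1, a receptor of CCL3, CCL5, CCL6 and CCL9 (ENSMUSG00000025804, chromosome 9, 123962124 to 123968692), was at 0.673, 0.256, 0.358 and 0.254 CPM in wild-type controls and at 13.9, 7.27 and 10.8 CPM in ubiquitous progerin. It was at 0.475, 0.249, 0.0542 and 0.368 CPM in lamin C-only controls and at 7.71, 8.09 and 6.93 CPM in VSMC progerin. The groups were far apart, and the rises of 4.79 ± 0.40 (adjusted p = 6.5e-09) and 4.71 ± 0.40 (adjusted p = 1.9e-08) were the largest of the receptors. Ccr2, the receptor of CCL2, CCL7 and CCL12 on inflammatory monocytes (ENSMUSG00000049103, chromosome 9, 124101950 to 124113557), was at 2.66, 0.833, 0.976 and 0.855 CPM in wild-type controls and at 15.1, 7.32 and 8.70 CPM in ubiquitous progerin. It was at 1.05, 1.05, 1.00 and 2.39 CPM in lamin C-only controls and at 16.5, 16.3 and 13.7 CPM in VSMC progerin. No ranges overlapped, with rises of 2.97 ± 0.41 (adjusted p = 3.1e-05) and 3.49 ± 0.41 (adjusted p = 1.1e-05).

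Cx3cr1, the receptor of CX3CL1 on patrolling monocytes and tissue macrophages (ENSMUSG00000052336, chromosome 9, 119901616 to 120069879), was at 2.20, 0.897, 1.92 and 0.730 CPM in wild-type controls and at 22.9, 11.8 and 15.2 CPM in ubiquitous progerin. It was at 2.01, 1.71, 1.49 and 1.96 CPM in lamin C-only controls and at 24.3, 29.7 and 24.5 CPM in VSMC progerin. Cx3cr1 rose by 3.54 ± 0.30 (adjusted p = 1.4e-07) and 3.87 ± 0.30 (adjusted p = 7.9e-08), so in ubiquitous progerin the receptor rose while its ligand fell.

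Cxcr4, the signalling receptor of CXCL12 (ENSMUSG00000045382, chromosome 1, 128588199 to 128592293), was at 1.74, 1.86, 1.17 and 0.857 CPM in wild-type controls and at 19.6, 11.01 and 17.2 CPM in ubiquitous progerin. It was at 1.31, 2.98, 1.57 and 1.35 CPM in lamin C-only controls and at 11.5, 12.6 and 8.11 CPM in VSMC progerin. It rose by 3.50 ± 0.31 (adjusted p = 4.9e-08) and 2.58 ± 0.30 (adjusted p = 2.4e-06) with no overlap, and the difference of 0.93 did not pass (adjusted p = 0.091). Ccr10, the receptor of CCL27 and CCL28 (ENSMUSG00000044052, chromosome 11, 101172997 to 101175443), was the 1 signalling receptor that fell. It was at 2.76, 1.22, 1.17 and 1.21 CPM in wild-type controls and at 0.648, 0.0741 and 0.244 CPM in ubiquitous progerin, a fall of 2.28 ± 0.66 on the log2 scale (adjusted p = 0.0064; -3.27 without ubiquitous progerin pool 1). It was at 0.838, 1.12, 1.36 and 1.53 CPM in lamin C-only controls and at 1.58, 0.594 and 0.350 CPM in VSMC progerin, which overlap (log2 fold change -0.53, adjusted p = 0.51). The lymphocyte receptors Cxcr3 and Cxcr5, the gut-homing receptor Ccr9 and the neutrophil receptor Cxcr2 were tested and not called, at group means of at most 0.823 CPM.

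**Figure D5:**
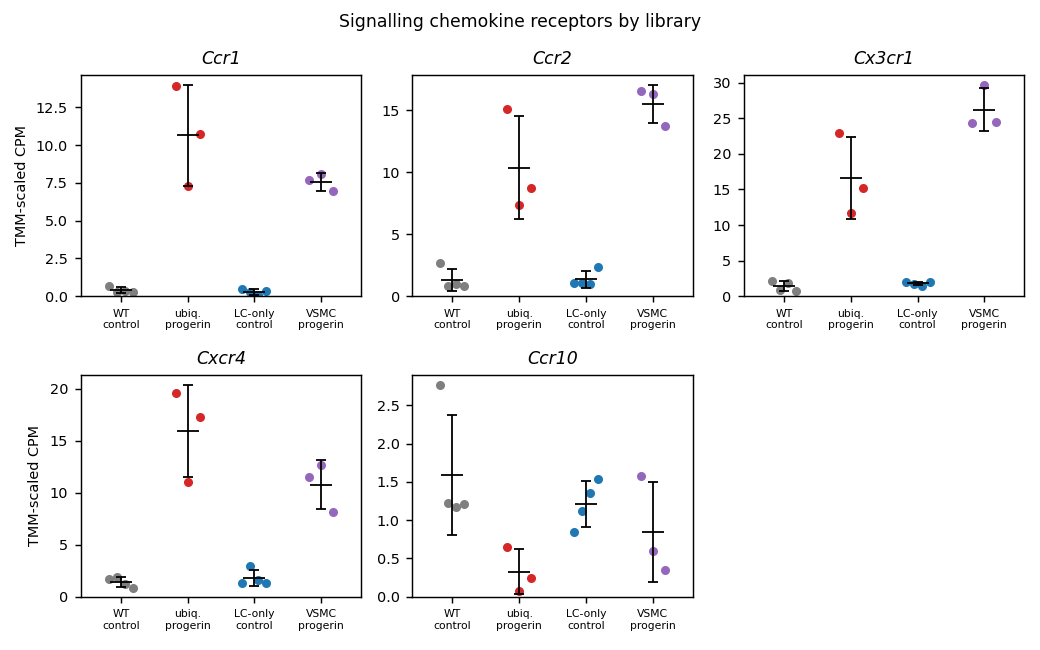
TMM-scaled CPM of receptor genes by library (points), with group means and SD (bars). Ccr1, Ccr2, Cx3cr1 and Cxcr4 are higher in every progerin pool than in its controls.

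Set against the summed CPM of the 12 macrophage markers, the values for myeloid members depended on the marker Mertk. Mertk did not rise, at 114 ± 12, 100.5 ± 18, 106 ± 11 and 72.1 ± 1.6 CPM (SD) in the 4 groups, and made up 46.2% of the sum in wild-type controls against 6.68% in ubiquitous progerin, and 38.4% against 7.32% in the other pair. Ratios are therefore given per 100 CPM of the sum with and without it, a choice made after seeing the data. Lyz2 was the largest part of the sum without Mertk, at means of 69.9, 487, 93.8 and 339 CPM in the 4 groups. That sum ran from 91.6 to 171, 1156 to 1780, 84.2 to 282 and 828 to 991 CPM, so these ratios rest largely on Lyz2. In ubiquitous progerin Ccr1 stood at 0.701 against 0.152 in wild-type controls with Mertk in the sum, and at 0.751 against 0.287 without it, and Cxcl13 at 0.756 against 0.137 and at 0.811 against 0.266. Without Mertk the Cxcl13 ranges overlapped, at 0.318 to 1.11 against 0.0837 to 0.451. Cx3cr1 stood at 1.09 against 0.574 with Mertk and at 1.16 against 1.08 without it, a log2 ratio of 0.92 that shrank to 0.11. Its ranges without Mertk overlapped. Ccl6 changed order, from 3.32 against 2.36 with Mertk to 3.56 against 4.64 without it, as did Ccl9, from 1.50 against 1.19 to 1.60 against 2.29, and Ccr2, from 0.673 against 0.516 to 0.721 against 0.968. In VSMC progerin the ratio was above the control in mean with and without Mertk for Ccl8, at 2.60 against 0.251 and 2.81 against 0.478, and for Ccl9, at 4.27 against 1.29 and 4.61 against 2.28. The same held for Ccr1, Cx3cr1, Ccr2, Ccl6 and Cxcl13, with log2 ratios of 1.84, 1.14, 0.83, 0.51 and 0.41 without Mertk. For Ccl6 and Cxcl13 the ranges without Mertk overlapped. These ratios are descriptions without a test, and the macrophage list does not separate macrophage types. The 4 monocyte markers summed to 9.04 to 13.3 CPM in wild-type controls, 21.4 to 27.8 CPM in ubiquitous progerin, 9.16 to 19.6 CPM among lamin C-only controls and 53.8 to 61.0 CPM in VSMC progerin. In ubiquitous progerin 3 of them rose, Chil3 among them, and Ly6c2 fell from 3.99 to 1.96 CPM, while in VSMC progerin 3 rose, Ly6c2 among them, and Chil3 stood at 0.424 against 0.414 CPM.

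Ackr3, the scavenging receptor of CXCL12 (ENSMUSG00000044337, chromosome 1, 90203980 to 90216751), had the highest level per length of the 68 genes in each group, at 133, 34.1, 135 and 60.1 CPM per kb. It was at 426, 431, 478 and 451 CPM in wild-type controls and at 114, 109 and 119.7 CPM in ubiquitous progerin. It was at 446, 494, 409 and 463 CPM in lamin C-only controls and at 185, 204 and 215 CPM in VSMC progerin. The pools of each group lay close together and far from the other group, and Ackr3 fell by 1.97 ± 0.07 (adjusted p = 1.3e-13) and 1.17 ± 0.07 (adjusted p = 9.2e-11) on the log2 scale. The fall was larger in ubiquitous progerin, by -0.80 ± 0.10 (adjusted p = 1.5e-06), under all alternatives run. Over the 8 endothelial markers, 0 rose and 6 fell in ubiquitous progerin (median log2 fold change -0.51), and 4 rose and 3 fell in VSMC progerin (median 0.10). The part of these marker values in the Ackr3 values was not tested.

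Ackr4, the scavenger of CCL19, CCL21 and CCL25 (ENSMUSG00000079355, chromosome 9, 104084157 to 104126933), was at 66.1, 60.8, 67.6 and 61.4 CPM in wild-type controls and at 4.82, 4.85 and 8.17 CPM in ubiquitous progerin. It was at 46.3, 46.6, 47.3 and 55.2 CPM in lamin C-only controls and at 5.39, 9.14 and 17.8 CPM in VSMC progerin. Ackr4 fell to 0.0931 and 0.222 of the control level; on the log2 scale it fell by 3.43 ± 0.34 (adjusted p = 7.4e-06) and fell by 2.17 ± 0.32 (adjusted p = 0.00024). The VSMC progerin pools differed among themselves, with pool 3 the highest. The difference of effects, -1.26 ± 0.45 (adjusted p = 0.041), was lost under 12 of 22 alternatives, with adjusted p up to 0.10. It was -0.69 (adjusted p = 0.062) without VSMC progerin pool 3, and from -1.28 to -1.13 under the others that lost it: each wild-type control pool left out, ubiquitous progerin pool 1 or 2, lamin C-only control pool 1, 2 or 3, the deposited log2 values, and no filter on low counts. Of 5 smooth muscle markers, 1 (Tagln) rose and 3 fell in ubiquitous progerin, where their sum was 919 to 964 CPM against 476 to 813 CPM in wild-type controls, and 0 rose and 2 (Acta2 and Myh11) fell in VSMC progerin, at 308 to 371 CPM against 382 to 546 CPM. The part of these markers in the Ackr4 values was not tested. Ackr4 shares 479 of its 5380 exonic bases with Acad11 on the other strand. As the strand setting of the counting was not given in the sources used here, reads from that stretch cannot be assigned to either gene with certainty. Such stretches cover 552 of 3021 bases in Cxcl16 (with Zmynd15), 204 of 7445 in Ccl25 (Elavl1), 78 of 4505 in Cx3cr1 (Gm33858) and 8 of 2377 in Ccl27a (Il11ra1).

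Ackr2, the scavenger of inflammatory CC chemokines, and Ackr1, the receptor of red cells and venules, stayed under 1 CPM in every group mean. Ackr2 had means of 0.0646 ± 0.075, 0.601 ± 0.48, 0.431 ± 0.39 and 0.494 ± 0.30 CPM (SD) in wild-type controls, ubiquitous progerin, lamin C-only and VSMC progerin. It was called in ubiquitous progerin (3.12 ± 0.99, adjusted p = 0.012), a call lost without ubiquitous progerin pool 2 (2.26, adjusted p = 0.11), and not in VSMC progerin. Ackr1 was not called, at means of 0.0347 to 0.382 CPM. Erythroid markers, which included Hbb-bs, summed to 325 to 5878 CPM in VSMC progerin and to 78.7 to 405 CPM in the other 3 groups. The VSMC progerin pools were very uneven here, with Hba-a1 at 888 ± 1294 CPM (SD, n = 3) and from 141 to 2382 CPM. The high sum is thus not a trait of every pool of that group.

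Genes around the chemokine system were described from lists. Of 7 chemokine-related genes under other names, 2 rose and 2 fell in ubiquitous progerin, and 5 rose and 0 fell in VSMC progerin. Cmklr1, the chemerin receptor, fell by 2.02 ± 0.23 and Ccrl2, which presents chemerin, by 0.86 ± 0.13 in ubiquitous progerin, while Cd74, the invariant chain and MIF receptor, rose by 2.77 ± 0.33. In VSMC progerin Cd74 rose by 2.34 ± 0.32, the platelet chemokine Pf4 by 1.69 ± 0.42 and Mif by 0.38 ± 0.10. Pf4 was also higher in ubiquitous progerin, with means of 14.5 against 2.08 CPM in wild-type controls. Ppbp, also a platelet chemokine, stood at 1.53 against 2.62 CPM there and at 7.16 against 3.91 CPM in VSMC progerin. Of 3 platelet markers, 1 rose and 0 fell in each setting. The part of platelets or macrophages in the Pf4 values was not tested. Of 16 receptor signalling genes, 10 rose and 3 fell in ubiquitous and 7 rose and 3 fell in VSMC progerin. The leukocyte GTPase Rac2 rose by 3.26 ± 0.20 and 2.83 ± 0.20 and the arrestin Arrb2 by 1.14 ± 0.09 and 0.98 ± 0.09. The receptor kinase Grk5 fell by 1.07 ± 0.08 in ubiquitous progerin, and the leukocyte Rac activator Dock2 rose by 2.77 ± 0.28 in VSMC progerin. Dock2 was also higher in ubiquitous progerin, with means of 14.5 against 1.73 CPM in wild-type controls.

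Of 12 genes that present or cut chemokines at the cell surface, 3 rose and 6 fell in ubiquitous progerin, and 5 rose and 1 fell in VSMC progerin. Adam10 and Adam17, the proteases that release CX3CL1 and CXCL16, fell by 0.92 ± 0.07 and 0.85 ± 0.10 in ubiquitous progerin. The heparan sulfate proteoglycan Sdc1 fell there by 0.78 ± 0.08 and rose by 1.86 ± 0.07 in VSMC progerin, where its relative Sdc3 rose by 0.80 ± 0.05 and the heparan sulfate polymerase Ext1 by 1.13 ± 0.08. Of 12 tested genes that induce chemokines or act on their induction, 2 rose and 4 fell in ubiquitous progerin. In VSMC progerin 5 rose and 2 fell. Over all genes 54.6% and 42.0% were called in these comparisons. The list held the NF-kB inhibitor Nfkbia as well as inducers. In ubiquitous progerin the interferon-pathway factor Irf1 fell by 0.93 ± 0.07, and the NF-kB inhibitor Nfkbia rose by 0.85 ± 0.09. In VSMC progerin the cytokine Il1b rose by 2.45 ± 0.46, and Irf1 and the NF-kB subunit Rela fell by 0.37 ± 0.07 and 0.30 ± 0.06. All of these passed edgeR's quasi-likelihood test after adjustment, and the counts read against the background shares given for each comparison. A gene named for 1 setting was not always unchanged in the other. Sdc3, for example, had means of 216 CPM in ubiquitous progerin and 159 CPM in wild-type controls.

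The 2 controls were compared to see whether making lamin C alone moved these genes. No member of 41 was called by edgeR's quasi-likelihood test, and none by DESeq2, limma-voom or limma on the deposited log2 values, while 6, 9, 2 and 3 had an unadjusted p under 0.05 by these. Over all genes 0.175% were called (0.0911% higher and 0.0841% lower), 25 genes in all. The control libraries are those used for the progerin effects, so this comparison shares its samples with both. A p that misses the threshold does not show that the controls were alike: Ccl6 had means of 5.67 ± 1.0 and 10.1 ± 4.1 CPM (SD, n = 4 each), and each of the lamin C-only pools had less Ackr4 than each of the wild-type pools, at 48.9 ± 4.3 against 64.0 ± 3.4 CPM (adjusted p = 0.82).

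Differences between the progerin effects were called for 7 of the 41 members (17.1%), 2 larger in ubiquitous progerin on the signed log2 scale (Ccl24 and Ccl17, 4.88%) and 5 smaller (Ccl25, Cx3cl1, Cxcl14, Ackr3 and Ackr4, 12.2%), against 1 and 6 with upper-quartile scaling. Over all genes 44.2% were called, 22.4% in the first and 21.8% in the second direction, a higher share than among the members. None of Ccr1, Ccr2, Cx3cr1 and Cxcr4 was among the 7. On the deposited log2 values, where 29 members could be tested, 3 were called.

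Among the 27 members with too few counts to be tested were 18 ligands and 9 receptors. Ccl20, Ccl26, Ccr8, Ccr1l1, Cxcl15 and a pair of Ccl27a copies on unplaced scaffolds were at 0 in all 14 libraries. Another 13 reached at most 10 counts in any library, among them Ccl1, Ccr6, Cxcl17, Xcl1, Ccr3, Ccr4, Cxcl5, Cxcl3, Ccl27b and copies of Ccl21 genes. The other 7 had highest counts of 11 for Cxcr6, the receptor of CXCL16, 18.1 for a second copy of Ccl19, 21 for the neutrophil receptor Cxcr1, 22.9 for a copy of Ccl21b, 26 for Xcr1 of dendritic cells, 47 for Ccr7, the receptor of CCL19 and CCL21, and 59.7 for Ccl21d. In the fit with no filter on low counts, 20 of the 27 had counts to fit, and edgeR's quasi-likelihood test called 0 of them in ubiquitous and 0 in VSMC progerin, where 2 and 2 had an unadjusted p under 0.05 (Ccr7 in VSMC progerin had a log2 value of 3.48, adjusted p = 0.06). The difference between the effects was called there for 2 gene copies that share reads, a second copy of Ccl19 and a copy of Ccl21b.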

How the data were processed

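RNA of pooled aortic intima was sequenced from polyadenylated RNA with a directional kit, per the labels' protocols. The authors deposited RSEM estimated counts per gene, and log2 values for a subset of genes. Tools named, per the submitters' processing notes, were RSEM 1.2.28, STAR 2.7.10b, limma, cutadapt 4.1 and Trim Galore 0.6.10, with the build GRCm38. Annotation release, filters and strand setting: not given in the sources used here.

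Estimated counts were rounded and filtered with filterByExpr (minimum count 10, total 15, share 0.7), which left 14269 genes. These were scaled by TMM factors, and edgeR 4.0.16 (R 4.3.3) gave robust quasi-likelihood tests from 1 fit of 14 libraries with a mean per group. Library totals of 27169784 to 35692385 counts limit what can be seen for genes under 1 CPM. SE is the size of the log2 fold change over the root of F. Positions are from GENCODE M21, in which 22388 of the 22430 identifiers were found, and promoters from RefSeq GRCm38.p6. Alternatives used DESeq2 1.42.0, limma 3.58.1 (voom, and the deposited log2 values), other scalings and filters, a pool block and each library left out. Pool numbers showed no sign of pairing the libraries.

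Called members with a mean of at least 1 CPM in a group (26) are given in every library, others by range, mean or count; a few named genes are counted in the totals and not reported here. In lists, up to 3 genes with the smallest p were named per comparison. Members and lists were chosen with earlier results of these data known. The steps were tested on simulated counts for the ubiquitous comparison: of 196 genes changed 2-fold among 14082, 151 (77.0%) were called, all 196 with the right direction, and 7 unchanged genes were called.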

Additional observations from a re-analysis of the deposited data

Results flagged for a closer look

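By edgeR's test of the difference with Benjamini-Hochberg adjustment, the effects of ubiquitous and VSMC progerin differed beyond the spread between pools for 7 members. That was 17.1% of the 41 tested, against 44.2% of all genes. On the log2 scale the differences were 5.14 for Ccl24 (adjusted p = 0.0043), 3.74 for Ccl17 (adjusted p = 0.049981), -2.62 for Cxcl14 (adjusted p = 0.024), -1.26 for Ackr4 (adjusted p = 0.041), -0.87 for Ccl25 (adjusted p = 0.0084), -0.80 for Ackr3 (adjusted p = 1.5e-06) and -0.79 for Cx3cl1 (adjusted p = 0.00013). The difference was lost under 14 of 20 alternatives for Ccl17, 12 of 22 for Ackr4 and 6 of 22 for Cxcl14. Cx3cl1 passed with opposite signs in the 2 settings, though its rise in VSMC progerin was lost under 7 of 16 alternatives.

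In 8 of 64 control groups of 4 pools, over 32 members, a single pool lay far from the other 3 by Dixon's criterion. Chance gives about 1 in 20 for continuous values, a rate that does not apply to counts near 0 such as those of Ccl12 and Ccl7, so the 8 are not read against it. Wild-type control pool 1 accounted for 3 of them, with Ccr2 at 2.66 CPM (others 0.833 to 0.976), Ccr10 at 2.76 CPM (others 1.17 to 1.22) and Ccl7 at 0 (others 0.0953 to 0.0976). It is the pool with counts for 14331 genes. Lamin C-only control pool 4 accounted for 4, with Ccr2 at 2.39 CPM (others 1.00 to 1.05), Ccl19 at 0.981 CPM (others 0.612 to 0.653), Ackr4 at 55.2 CPM (others 46.3 to 47.3) and Ccl12 at 0.123 CPM (others 0). Lamin C-only control pool 2 had Cxcr4 at 2.98 CPM (others 1.31 to 1.57).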

How the results depend on the processing

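None of the 53 calls reversed direction under any alternative run, and 42 held under all that could be run. Without Mertk in the macrophage marker sum, an alternative chosen after seeing the data, the log2 ratio of ubiquitous progerin to control turned to -0.38 for Ccl6, -0.52 for Ccl9 and -0.43 for Ccr2 per marker sum. The 11 others are given with the results. With 1 library left out, 21 to 27 members were called in ubiquitous progerin (25 with all), 19 to 22 in VSMC progerin (21), 0 between the controls and 5 to 10 for the difference of effects (7). The fit with the pool number as a replicate block called 24, 21, 0 and 7. It lost Cxcl14 in ubiquitous progerin, Cx3cl1 in VSMC progerin and Ccl17 for the difference. Same-numbered pools correlated at -0.046 to 0.023, so the numbers did not pair them. On the deposited log2 values the difference was called for 3 of 29 members tested, where 12 members of the main test were not included. Upper-quartile scaling called 3251 of 5659 genes higher in VSMC progerin (2705 of 5988 in the main fit) and 2708 of 6319 for the difference (3203 of 6310), and called 23 and 7 members. Scalings moved the median of all genes by less than 0.1. Members under about 1 CPM rest on few counts, which limits their precision.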
